A study of Drosophila melanogaster with 5 samples.

Results

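The 8 genes described here, bam, bgcn, mei-P26, nos, pum, brat, twin and pelo, regulate the passage of a Drosophila female germline stem cell to a dividing cyst. They were chosen by name among the 14094 genes of the deposited count table, and all 8 were found there and had enough counts to be tested. RNA came from dissected ovaries of adult Drosophila melanogaster, taken 1 to 3 days after eclosion. The 2 knockout libraries carry the genotype BEAF 32-AB KO, an alteration of the insulator protein BEAF-32 for which the labels give no allele. The 3 control libraries come from a nosGAL4;MKRS/TM6 line, labelled as wild type. That line holds a transgene that expresses the yeast activator GAL4 under nos sequences in the germline, and chromosome 3 balancers that the knockout label does not name. Differences between the stocks other than BEAF-32 cannot be told apart from that of BEAF-32. The labels do not say how many ovaries were pooled, or whether replicates are separate collections of flies, so the p-values cover no more than the spread among 5 libraries, which may be technical.

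Female germline stem cells sit at the tip of the germarium next to somatic niche cells that secrete BMP ligands, which keep the gene bam silent in the stem cell. There Nanos (nos) and Pumilio (pum) bind mRNAs of differentiation factors and recruit the CCR4-NOT deadenylase, whose catalytic subunit is encoded by twin. The daughter cell that leaves the niche expresses Bam, which acts with Bgcn to repress other mRNAs, among them that of nos, and then divides into a cyst. Mei-P26 and Brat are TRIM-NHL proteins that limit growth and proliferation signals, and Pelota (pelo) releases stalled ribosomes and is needed to keep the stem cell.

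The knockout libraries held 38820176 and 47805964 estimated counts, against 41105107, 8448850 and 10388643 in controls 1, 2 and 3. Levels are given as CPM, the counts of a gene scaled to the library total. Each fold change is the log2 difference of knockout over control, with its standard error (SE). Calls were made at an adjusted p under 0.05 by edgeR's quasi-likelihood test over 9241 genes. BEAF-32 itself was at 50.2 and 52.8 CPM in the knockout libraries, against 84.9, 136 and 144 CPM in controls 1, 2 and 3. It was called lower (-1.19, SE 0.26, adjusted p = 0.0157 by edgeR). Control 1 stood apart from the other controls: in a principal component analysis, component 1 (78.7%) split knockout from control and component 2 (11.7%) split control 1 from the rest. Controls 2 and 3 held less RNA of long genes: for the 719 genes with an annotated transcript over 6 kb, the median difference from control 1 was -0.93 on the log2 scale (CPM plus 0.5). For the 4443 genes under 2 kb it was 0.26. The gap also enters the comparison with the knockout. For genes over 6 kb, the median of knockout minus control was 0.14 against control 1 and 1.21 against controls 2 and 3. For genes under 2 kb these medians were 0.21 and -0.086. Tissue markers also moved with the genotype. All 11 late eggshell markers fell, and their levels summed to 248 to 286 CPM in the knockout libraries, against 19475 to 27492 CPM in the controls. Follicle cell markers rose in 5 of 6 cases, with sums of 807 to 831 CPM in the knockout libraries, against 186 to 221 CPM in the controls. Muscle markers rose in 8 of 9 cases, with sums of 4668 to 4678 CPM against 399.7 to 742 CPM. Niche and escort cell markers summed to 35.7 to 37.9 CPM against 2.89 to 5.04 CPM, with 2 of 3 tested members higher. The marker en was not tested: it was at 0 in all controls and at 0.129 and 0.167 CPM in the knockout libraries. Those levels lie below 3 counts in controls 2 and 3 (0.355 and 0.289 CPM). Hemocyte and fat body markers summed to 114.5 to 178 CPM against 32.4 to 53.2 CPM, with 2 of 4 tested members higher. Testis markers summed to 8.32 to 10.3 CPM against 0.473 to 2.50 CPM, with 2 of 4 tested members higher and dj at 0 in every library. Germline markers were split: 2 of 8 rose, 2 fell and 4 were not called. Beside all the marker counts given here, 22.7% of all tested genes rose and 18.7% fell. The germline marker sums were 1590 to 1760 CPM in the knockout libraries and 1205 to 1768 CPM in the controls. The part of these shifts in the results below was not tested. In whole ovaries, fewer cells of a type and less RNA per cell cannot be told apart.

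Of the 8 regulators, 6 fell in the knockout, 1 rose and 1 was not called. Across all tested genes 41.5% were called, 18.7% lower and 22.7% higher. The 7 called of 8 lie above that share, mostly in the lower direction. The 8 were chosen with earlier results of these data known, so the comparison is not unbiased. The count also rested on both knockout libraries. Without knockout 1, 3 were lower and 0 higher, with 9.46% of all tested genes called. Without knockout 2, 4 were lower and 0 higher, with 11.1% called. Among called genes 54.9% were higher, and scaling over germline markers moved that share to 39.2%. The same scaling moved the median of all tested genes by -0.57, so genes already lower tended to stay lower. That the 8 regulators still had 6 lower and 1 higher is therefore no separate support. The median log2 fold change of the 8 was -1.12, against 0.11 for all tested genes. The knockout and control libraries did not overlap for 7 of the 8 (68.1% of all tested genes): 6 lay below all controls (30.5% of all tested genes) and 1 above them (37.6%). Together the 8 genes took 0.0992% and 0.105% of the counts of the knockout libraries, against 0.236%, 0.230% and 0.225% in the controls. The control shares include nos, where reads of the nosGAL4 transgene may be counted, and their part was not tested.

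**Figure D1:**
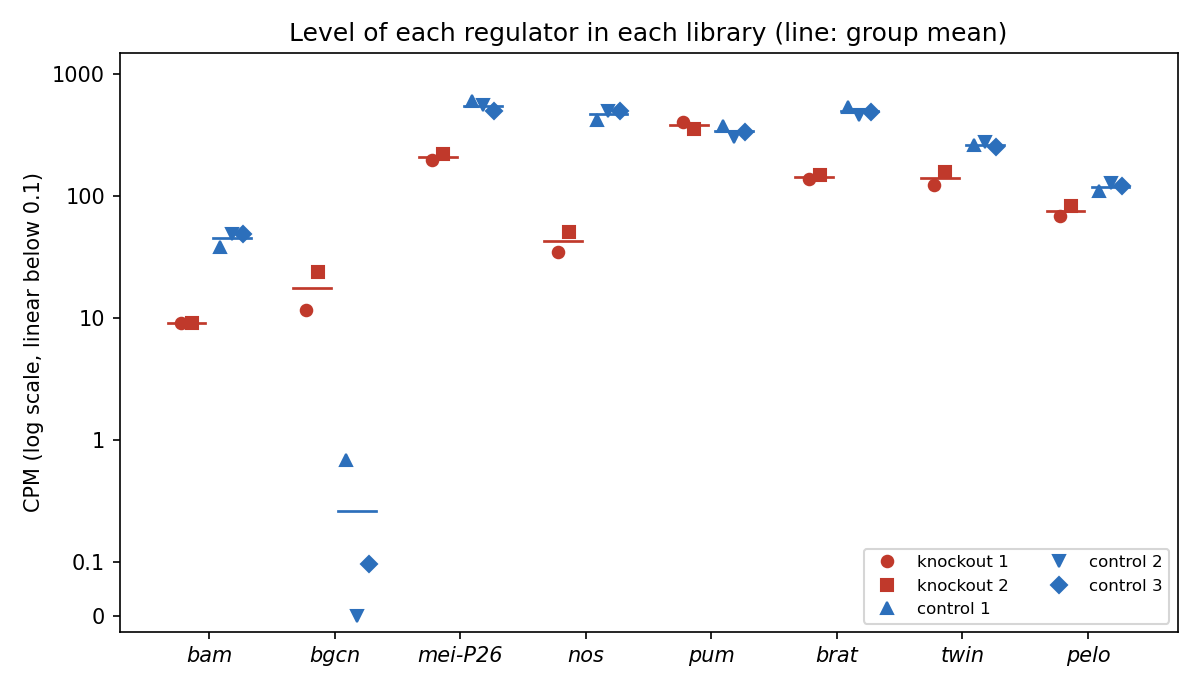
Level of each of the 8 regulators in each library, in CPM on a log axis that is linear below 0.1. Red symbols are the 2 knockout libraries, blue symbols the 3 controls, and lines the group means. The knockout symbols lie below all controls for bam, mei-P26, nos, brat, twin and pelo, and above them for bgcn, while for pum knockout 2 lies among the controls and knockout 1 above them.

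The genes bam and bgcn of the differentiation switch moved in opposite directions in RNA of whole ovaries. The gene bam (FBgn0000158, chromosome 3R, 25243039 to 25245109, minus strand, dm6 coordinates) had 9.17 and 9.16 CPM in the knockout libraries, against 38.6, 49.2 and 48.5 CPM in controls 1, 2 and 3. The knockout libraries lay at about the same level, far below the lowest control. On average bam was at 9.17 ± 0.00598 CPM in the knockout (SD, n = 2) and 45.4 ± 5.97 CPM in control ovaries (SD, n = 3). The knockout levels rest on 356 and 438 counts, and so small an SD of 2 libraries does not measure their precision. The change was -2.26 (SE 0.19, 95% interval -2.73 to -1.80, adjusted p = 0.000892 by edgeR). That is 20.2% of the control level, and 4.05% of all tested genes had a log2 fold change as low or lower. The call held under every alternative run, with values between -2.87 (scaling over germline markers) and -2.06 (a term for deep against shallow libraries).

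Its partner bgcn (FBgn0004581, chromosome 2R, 23853270 to 23858921, minus strand), which encodes a protein related to DExH-box helicases, had almost no counts in the control libraries. The annotation the authors counted on is not given in the sources used here, so whether reads of bgcn were missed or assigned elsewhere in those libraries was not tested, and the change and the ratio to bam given for it carry that limit. The knockout libraries held 11.7 and 23.8 CPM, from 455 and 1138 counts. Controls 1, 2 and 3 held 28, 0 and 1 counts, or 0.681, 0 and 0.0963 CPM. The 0 in control 2 allows a level of up to 0.355 CPM at 3 counts. Summed over the controls, bgcn was at 0.484 CPM (exact 95% Poisson interval 0.324 to 0.695, which covers counting error only). Of these 29 counts 28 came from control 1, and the mean over the control libraries was 0.259 CPM. The fitted change was 5.61 (SE 0.92, 95% interval 3.34 to 7.87, adjusted p = 0.00648 by edgeR), and both knockout libraries lay above all controls. Its size rested on which controls were used: 8.29 without control 1, and 4.58 for both knockout libraries against control 1 alone, an alternative chosen after seeing the data. Leaving out knockout 1 ended the call (6.04, adjusted p = 0.0524 by edgeR) as did leaving out knockout 2 (5.28, adjusted p = 0.0769 by edgeR). The knockout libraries themselves were spread, at 17.8 ± 8.54 CPM (SD, n = 2).

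Of the genes whose proteins repress mRNAs in the stem cell, nos fell and pum was not called. The RNA is of whole ovaries, so their levels in stem cells are not told apart from those in other cells. The gene nos (FBgn0002962, listed as nanos in the annotation, chromosome 3R, 19157238 to 19160202, plus strand) encodes a zinc finger protein that joins Pumilio on target mRNAs. It had 35.0 and 50.9 CPM in the knockout libraries, against 419, 503 and 503 CPM in controls 1, 2 and 3. The lower of the controls was still far above the higher knockout library. The change was -3.43 (SE 0.23, 95% interval -4.00 to -2.87, adjusted p = 0.000563 by edgeR), the largest fall among the 8, and nos reached 9.03% of its control level. Since the control line carries a nosGAL4 transgene, and the labels do not say which nos sequences it holds, reads from it may be counted as nos in the control only. The share of such reads was not tested, and the size of the difference is uncertain.

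The gene pum (FBgn0003165, chromosome 3R, 9066343 to 9237682, minus strand) encodes the RNA-binding partner that gives target choice to the complex. It had 407 and 358 CPM in the knockout libraries, against 381, 307 and 336 CPM in controls 1, 2 and 3. The groups overlapped, since control 1 lay between the knockout libraries. The change of 0.21 (SE 0.20, 95% interval -0.27 to 0.69, adjusted p = 0.419 by edgeR) was not called, and the interval allows a fall of 0.27 as well as a rise of 0.69 on the log2 scale. Its sign turned with scaling over germline markers (-0.34), for control 1 alone as control (-0.088) and without knockout 1 (-0.0021).

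The gene twin (FBgn0011725, chromosome 3R, 24196893 to 24221965, minus strand), which encodes the CCR4 deadenylase that Nanos and Pumilio recruit, fell. It had 124 and 158 CPM in the knockout libraries, against 261, 281 and 251 CPM in controls 1, 2 and 3. The groups were apart, with the knockout libraries more spread than the controls. The change was -0.87 (SE 0.17, 95% interval -1.29 to -0.45, adjusted p = 0.0113 by edgeR). It was not called without knockout 1 (-0.81, adjusted p = 0.119 by edgeR) or without knockout 2 (-0.99, adjusted p = 0.0804 by edgeR).

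Of the other 8 subunits of the CCR4-NOT complex, 0 fell, 1 rose and 7 were not called, with a median of 0.32 against 0.11 for all tested genes, of which 18.7% fell and 22.7% rose. Rcd-1, a core subunit, was at 121 ± 16.6 CPM in knockout ovaries and 64.8 ± 22.3 CPM in control ovaries (0.93, SE 0.30, adjusted p = 0.0497 by edgeR). That call was lost with size factors by relative log expression (adjusted p = 0.0516 by edgeR), with no filter on low counts, with scaling over germline markers, against control 1 alone, and without any one library except control 1. Pop2, the other deadenylase of the complex, had 137 and 154 CPM in the knockout libraries, against 137, 116 and 104 CPM in controls 1, 2 and 3, and was not called (0.33, SE 0.18, adjusted p = 0.196 by edgeR). Cnot4, a ubiquitin ligase, changed by -0.36 (SE 0.24, adjusted p = 0.270 by edgeR). It was called lower with a term for deep against shallow libraries (-0.69, adjusted p = 0.00553 by edgeR) and against control 1 alone (-0.81, adjusted p = 0.00237 by edgeR), where twin was at -0.88 and -0.995. The scaffold subunit Not1, a long gene, had 905 and 920 CPM in the knockout libraries, against 898, 201 and 127 CPM in controls 1, 2 and 3. Control 1 lay at the knockout level and the other controls far below it, and Not1 was not called (1.19, SE 0.82, adjusted p = 0.288 by edgeR), but without control 1 it was (2.53, adjusted p = 1.04e-05 by edgeR).

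Both TRIM-NHL genes fell. The gene mei-P26 (FBgn0026206, chromosome X, 9163255 to 9189309, plus strand) had 198 and 220 CPM in the knockout libraries, against 601, 560 and 502 CPM in controls 1, 2 and 3. The lowest control was above both knockout libraries. The change was -1.37 (SE 0.17, 95% interval -1.80 to -0.94, adjusted p = 0.00288 by edgeR), and without knockout 1 it narrowly missed the threshold (-1.40, adjusted p = 0.0504 by edgeR).

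The gene brat (FBgn0010300, chromosome 2L, 19133816 to 19179758, plus strand), whose protein joins Pumilio on mRNAs in the daughter cell, had 139 and 150 CPM in the knockout libraries. Controls 1, 2 and 3 had 545, 469 and 490 CPM. Both groups were tight and lay apart. The change was -1.75 (SE 0.18, 95% interval -2.19 to -1.31, adjusted p = 0.00148 by edgeR), and it was called under every alternative run.

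The gene pelo (FBgn0011207, chromosome 2L, 9700810 to 9708883, plus strand) showed the smallest fall. It had 68.5 and 82.7 CPM in the knockout libraries, against 110, 128 and 122 CPM in controls 1, 2 and 3. The groups did not overlap. The change was -0.63 (SE 0.15, 95% interval -1.01 to -0.25, adjusted p = 0.0236 by edgeR). It was not called without any one library except control 1 (adjusted p = 0.193 without knockout 1, 0.144 without knockout 2, 0.0542 without control 2 and 0.0505 without control 3, by edgeR). The partners of Pelota in ribosome rescue went the other way: HBS1, the GTPase that delivers it to the ribosome, and pix, which splits ribosomes, both rose. HBS1 had 75.3 and 78.1 CPM in the knockout libraries, against 45.6, 46.9 and 53.0 CPM in controls 1, 2 and 3 (0.70, SE 0.15, adjusted p = 0.0155 by edgeR). For pix the levels were 454 ± 84.6 CPM in knockout ovaries and 226 ± 49.0 CPM in control ovaries (1.04, SE 0.24, adjusted p = 0.0181 by edgeR). With scaling over germline markers, which moved the median of all genes by -0.57, neither was called (HBS1 at 0.11, adjusted p = 0.839, pix at 0.52, adjusted p = 0.248, by edgeR), and neither was called without knockout 1, knockout 2 or control 2, nor pix without control 3.

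**Figure D2:**
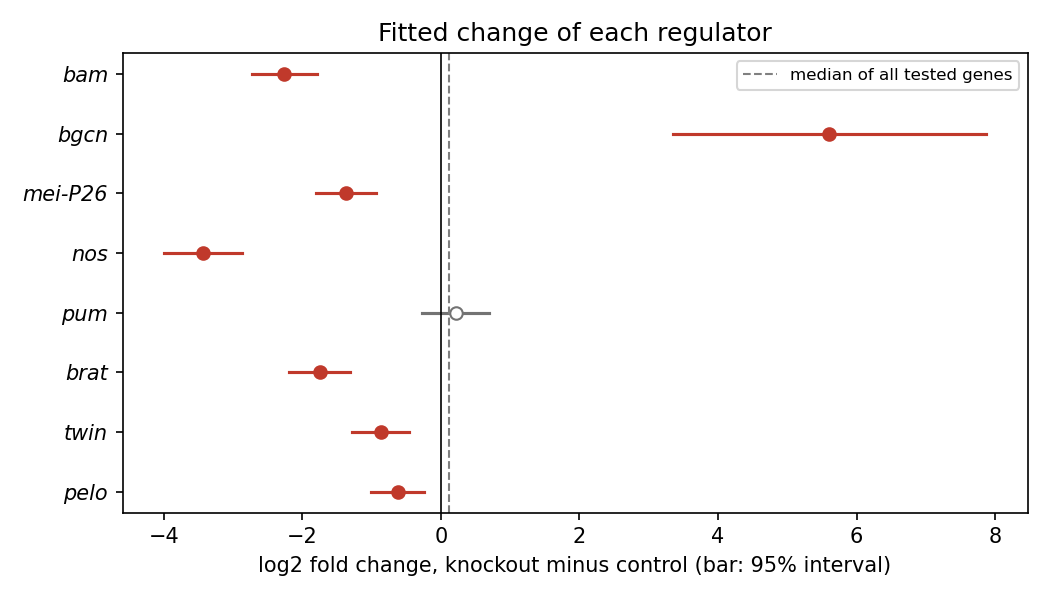
Fitted log2 fold change of each regulator, knockout minus control, with its 95% interval as a bar. Filled red points were called at an adjusted p under 0.05, the open grey point was not, and the dashed line is the median of all tested genes at 0.11. The intervals of bam, mei-P26, nos, brat, twin and pelo lie below 0, that of bgcn above it, and that of pum spans it.

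**Figure D3:**
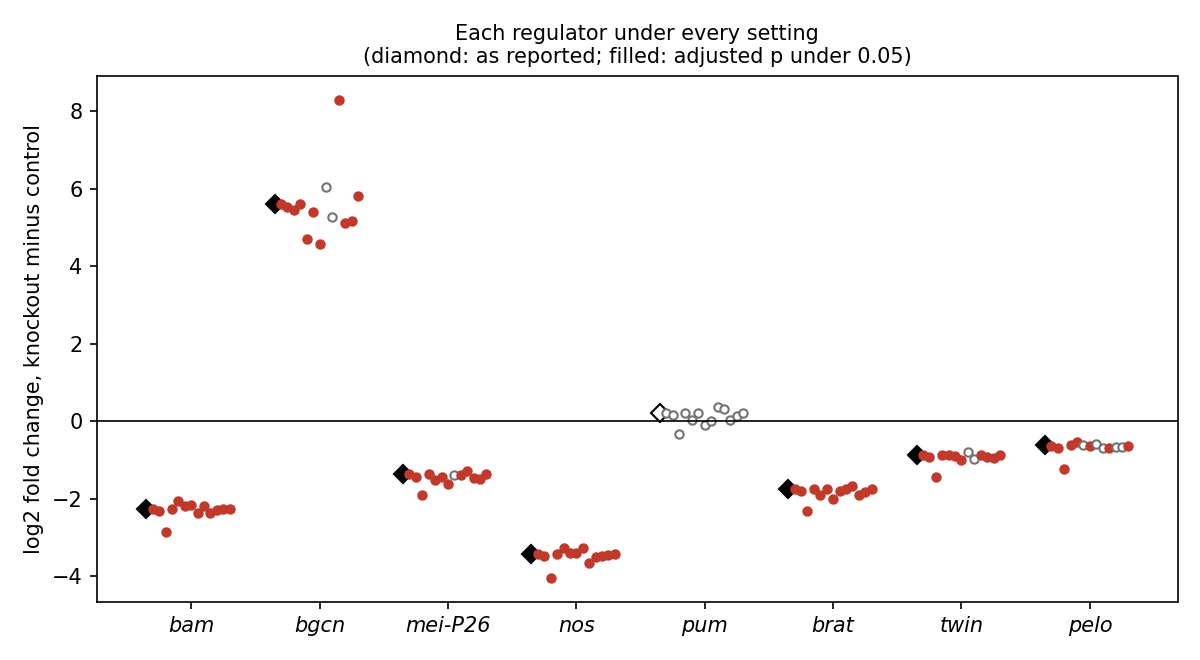
Log2 fold change of each regulator, knockout minus control, as reported (diamond) and under 13 alternatives (circles), filled where the adjusted p was under 0.05. The points of bam, nos and brat are filled throughout, bgcn runs from 4.58 to 8.29, and pum lies on both sides of 0 with no filled point.

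Ratios of partner genes within a library do not depend on the scaling between libraries, so they were compared for 5 pairs. For genes of unequal length they do not remove the length gap between control 1 and controls 2 and 3. The part of that gap in the ratios was not tested. In each of the 5 the knockout libraries lay apart from the controls. The first gene of each pair already lay apart by itself, as did 68.1% of all tested genes. Ratios of other gene pairs were not computed, so no background share can be set beside these. With 2 against 3 libraries there are 10 groupings, and the exact permutation test (two-sided) gave its smallest possible p of 0.1 for every pair, or 0.1 after Benjamini-Hochberg adjustment over the 5, so none can pass 0.05. The log2 ratio of bam to bgcn was -0.35 and -1.38 in the knockout libraries, against 5.80, 9.70 and 8.39 in controls 1, 2 and 3. Both knockout values lay far below those of all controls. The ratios are of counts and are not corrected for transcript length, so they are compared between libraries and not read as levels of one gene over the other. The value of control 2 there rests on 0.5 counts added to each gene, since its bgcn count is 0. The ratio of nos to pum was -3.54 and -2.82 in the knockout libraries, against 0.14, 0.71 and 0.58 in the controls, with the doubt on nos given above.

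The ratio of twin to Pop2 averaged -0.056 ± 0.13 in the knockout and 1.16 ± 0.20 in the control. The ratio of pelo to HBS1 averaged -0.027 ± 0.15 in the knockout and 1.31 ± 0.13 in the control. For mei-P26 to brat the difference was the smallest, with 0.53 ± 0.036 in the knockout and 0.14 ± 0.11 in the control (SD, n = 2 and 3). Both TRIM-NHL genes fell, and brat by a little more than mei-P26.

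**Figure D4:**
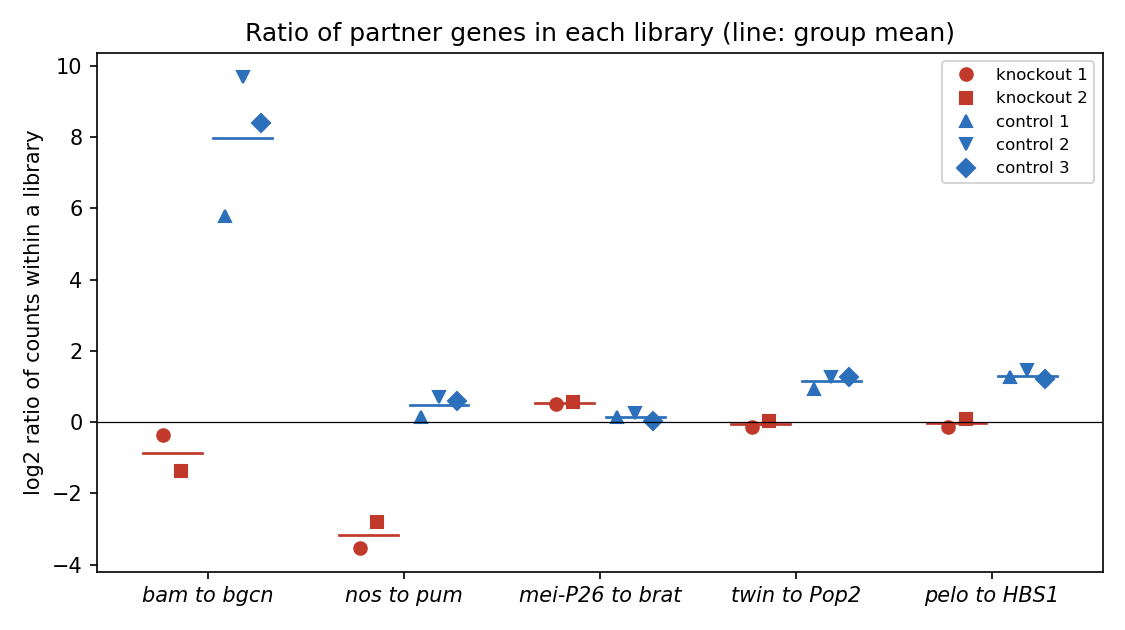
Log2 ratio of counts of partner genes within each library, with 0.5 counts added to each gene. Red symbols are the knockout libraries, blue symbols the controls, and lines the group means. The knockout symbols lie below the controls for bam to bgcn, nos to pum, twin to Pop2 and pelo to HBS1, and above them for mei-P26 to brat.

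The order of the levels also differed between the groups. Per kilobase of the median annotated transcript, pum stood first in the knockout at 56.8 ± 5.15 CPM per kb, followed by twin (52.3 ± 8.91), pelo (37.0 ± 4.91), mei-P26 (29.6 ± 2.28), brat (29.2 ± 1.51), nos (18.5 ± 4.84), bam (4.71 ± 0.00307) and bgcn (4.28 ± 2.06). The SD of bam carries the limit given above. The ranges of the libraries overlapped between pum and twin, between mei-P26 and brat and between bam and bgcn. In the control nos stood first at 205 ± 20.9 CPM per kb, followed by brat (101 ± 7.97), twin (98.1 ± 5.56), mei-P26 (78.4 ± 7.03), pelo (58.7 ± 4.57), pum (50.6 ± 5.51), bam (23.3 ± 3.07) and bgcn (0.0624 ± 0.0888). There the ranges of brat and twin overlapped, as did those of pelo and pum. The order depends on the transcript used. For mei-P26 the 6 annotated transcripts run from 4966 to 23041 bases, and its level in the control was 112 CPM per kb of the shortest and 24.1 CPM per kb of the longest. Per kilobase of the longest transcripts, twin (39.7) passed pum (37.4) in the knockout, and in the control brat (41.5) came below twin (74.6) and pelo (58.7). With the median, shortest or longest transcripts alike, nos stood first in the control, and bam and bgcn came last in the knockout. The place of nos in the control carries the doubt on transgene reads given above. The files do not separate transcripts.

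Other genes of the pathway were taken from 6 lists with 40 genes between them, of which 39 were tested: 10 rose, 4 fell and 25 were not called. That is 14 called of 39, against 41.5% of all tested genes, a share near or below the background. Among partners and antagonists of Bam and Bgcn, 0 of 6 rose, 2 fell and 4 were not called. CycA, the cyclin that Bam stabilises together with the deubiquitinase Otu, had 244 and 279 CPM in the knockout libraries, against 1313, 1695 and 1674 CPM in controls 1, 2 and 3 (-2.54, SE 0.20, adjusted p = 0.000756 by edgeR). The otu gene had 93.0 and 110 CPM in the knockout libraries, against 871, 530 and 483 CPM in the controls (-2.60, SE 0.33, adjusted p = 0.00296 by edgeR). Without knockout 1 otu missed the threshold (adjusted p = 0.0502 by edgeR). Like bam, both lay far below every control. Sxl, the RNA-binding sex determination protein that acts with Bam on nos mRNA, was at 366 ± 27.7 CPM in knockout ovaries and 352 ± 14.0 CPM in control ovaries (0.10, SE 0.15, 95% interval -0.27 to 0.47, adjusted p = 0.628 by edgeR). The translation factor eIF4A, which counteracts Bam, changed by 0.46 (SE 0.25, adjusted p = 0.193 by edgeR), and was called higher when deep and shallow libraries had a term of their own (0.93, adjusted p = 0.00289 by edgeR) and against control 1 alone.

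Of 4 RNA-binding regulators that act later in the cyst, 2 rose, 1 fell and 1 was not called (median 0.97), and with scaling over germline markers 1 was higher. Among all tested genes, 22.7% rose and 18.7% fell. Rbp9, an ELAV-family protein needed for cyst differentiation, had 70.7 and 80.7 CPM in the knockout libraries, against 6.86, 3.91 and 10.7 CPM in controls 1, 2 and 3 (3.43, SE 0.39, adjusted p = 0.00204 by edgeR). Rbfox1, a splicing and translation factor of the cyst, was at 111 ± 18.5 CPM in knockout ovaries and 43.9 ± 6.04 CPM in control ovaries (1.38, SE 0.17, adjusted p = 0.0028 by edgeR), but was not called with scaling over germline markers (0.77, adjusted p = 0.146 by edgeR). The translational repressor bru1 fell, with 767 ± 85.0 CPM in knockout ovaries and 1334 ± 196 CPM in control ovaries (-0.76, SE 0.19, adjusted p = 0.0244 by edgeR). It was not called without knockout 1, knockout 2, control 2 or control 3. The oocyte factor orb changed by 0.55 (SE 0.32, adjusted p = 0.217 by edgeR), with control 1 at the knockout level, and was called higher without control 1 (0.92, adjusted p = 0.000115 by edgeR).

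Stem cell maintenance factors had 2 of 8 members higher, 0 lower and 6 not called (median 0.35). That is near or below the background, since 22.7% of all tested genes rose and 18.7% fell. The Argonaute piwi, which is made in both germline and soma, was at 458 ± 22.3 CPM in knockout ovaries and 178 ± 47.9 CPM in control ovaries (1.40, SE 0.26, adjusted p = 0.00936 by edgeR). The histone deubiquitinase scny was at 292 ± 8.37 CPM in knockout ovaries and 189 ± 10.9 CPM in control ovaries (0.67, SE 0.16, adjusted p = 0.0207 by edgeR). Neither was called with scaling over germline markers (piwi at 0.91, adjusted p = 0.0544, scny at 0.094, adjusted p = 0.860, by edgeR), nor without knockout 1, knockout 2 or control 2, nor scny without control 3. The ubiquitin-conjugating enzyme eff changed by -0.70 (SE 0.26, adjusted p = 0.0748 by edgeR, called lower by DESeq2 and without control 1) and Myc by 0.20 (SE 0.18, adjusted p = 0.399 by edgeR).

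Of 11 genes of the BMP signal that silences bam, 3 rose, 1 fell and 7 were not called (median 0.15). Across all tested genes 22.7% rose and 18.7% fell, so these counts are near or below the background. Both ligand genes rose. The gene dpp had 15.7 and 14.0 CPM in the knockout libraries, against 4.77, 2.72 and 2.21 CPM in controls 1, 2 and 3 (2.21, SE 0.41, adjusted p = 0.00973 by edgeR). The other ligand gene, gbb, had 44.8 and 45.4 CPM in the knockout libraries, against 9.41, 13.4 and 8.47 CPM in the controls (2.17, SE 0.23, adjusted p = 0.00161 by edgeR). Dad, a target and inhibitor of the signal, was at 47.9 ± 1.98 CPM in knockout ovaries and 15.2 ± 8.49 CPM in control ovaries (1.67, SE 0.44, adjusted p = 0.0291 by edgeR). The transducer Mad fell, with 103 ± 4.33 CPM in knockout ovaries and 153 ± 4.46 CPM in control ovaries (-0.53, SE 0.15, adjusted p = 0.0358 by edgeR). Dad and Mad were not called without any one library except control 1, and dpp not without knockout 1 or knockout 2. Dad was not called with no filter on low counts either (1.59, adjusted p = 0.0532 by edgeR). The repressor shn, a long gene, had 237 and 229 CPM in the knockout libraries, against 114, 18.8 and 11.2 CPM in controls 1, 2 and 3, and was not called (2.29, SE 0.96, adjusted p = 0.106 by edgeR). It was called higher by DESeq2 (2.30, adjusted p = 0.0315), without control 1 (4.03) and against control 1 alone (0.94, adjusted p = 0.000609 by edgeR). Smurf, a ubiquitin ligase that limits the signal, changed by -0.17 (SE 0.29, adjusted p = 0.659 by edgeR), but was called lower with a term for deep against shallow libraries (-0.64, adjusted p = 0.00575 by edgeR) and against control 1 alone (-0.75, adjusted p = 0.00116 by edgeR).

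**Figure D5:**
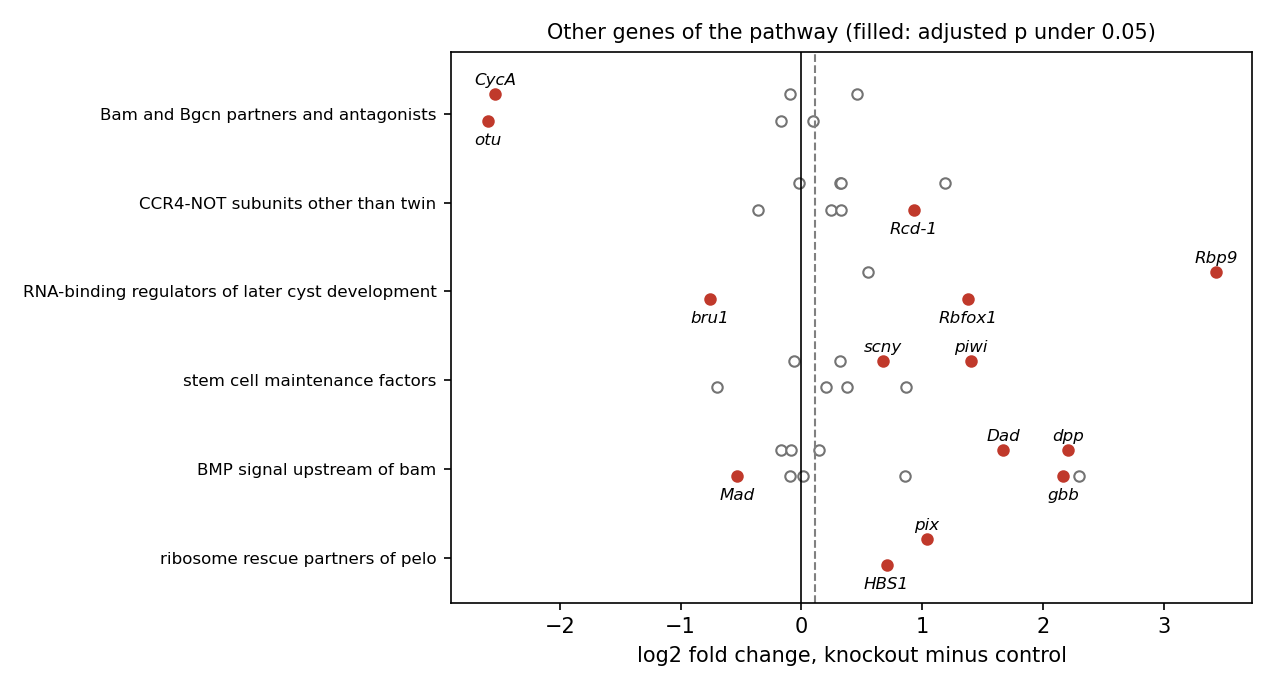
Log2 fold change, knockout minus control, of each tested gene of the 6 pathway lists. Filled red points with names were called at an adjusted p under 0.05, open grey points were not, and the dashed line is the median of all tested genes. CycA and otu lie near -2.5, while Rbp9 at 3.43 is the highest.

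The germline marker vas, an RNA helicase of germline cells, had 265 and 277 CPM in the knockout libraries, against 428, 490 and 483 CPM in controls 1, 2 and 3 (-0.74, SE 0.16, adjusted p = 0.0154 by edgeR). AGO3, a piRNA factor of the germline, also fell (-1.46, SE 0.25, adjusted p = 0.00716 by edgeR). The piRNA factors spn-E (1.22, SE 0.27, adjusted p = 0.0172 by edgeR) and qin (2.31, SE 0.54, adjusted p = 0.0200 by edgeR) rose. None of these 4 calls held when either knockout library was left out (adjusted p = 0.0579 to 0.142 by edgeR). Those of spn-E and qin were also lost without control 2, that of spn-E without control 3 and with scaling over germline markers (0.74, adjusted p = 0.0975 by edgeR), and that of vas with the replicate number as a block (-0.71, adjusted p = 0.0629 by edgeR). The gene tud, a long gene at 491 and 491 CPM in the knockout libraries and at 483, 75.3 and 38.3 CPM in controls 1, 2 and 3, was not called, but was called higher without control 1 (3.17, adjusted p = 0.000433 by edgeR). When library factors were taken from these markers, the median of all tested genes moved by -0.57. The downward shift of all 8 regulators therefore follows from the scaling and is not particular to them. The calls were 1 higher and 6 lower: bam was at -2.87, nos at -4.05, brat at -2.31, mei-P26 at -1.92, twin at -1.45, pelo at -1.22 and bgcn at 5.44.

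The 8 genes lie on chromosomes X, 2L, 2R and 3R and differ in size, from 1946 bases for the transcript of bam to 23041 bases for the longest transcript of mei-P26. Among the controls, the long genes brat, pum and mei-P26 differed by -0.24 to -0.18 between controls 2 and 3 and control 1 (log2 of CPM plus 0.5). That was a smaller gap than in the median gene over 6 kb. For bgcn, with a longest transcript of 4159 bases, the difference was -1.11, against a median of -0.43 for genes of 4 to 6 kb. It rests on 28, 0 and 1 counts in controls 1, 2 and 3, and the added 0.5 CPM is above its level in controls 2 and 3. Counted genes that overlap the 8 or lie within 500 bases of them numbered 19. Of the 16 tested, 5 rose and 3 fell, or 8 of 16 against 41.5% of all genes. The examples that follow were picked after their values were seen. Pym lies on the same strand in the first intron of bgcn and went the other way. It had 10.3 and 10.1 CPM in the knockout libraries, against 31.1, 35.9 and 52.2 CPM in controls 1, 2 and 3 (-1.91, SE 0.28, adjusted p = 0.00441 by edgeR). On the other flanks of bgcn, gbb and TBPH rose, TBPH with 58.4 ± 1.36 CPM in knockout ovaries and 27.4 ± 4.92 CPM in control ovaries (1.13, SE 0.21, adjusted p = 0.00942 by edgeR). CG31710, within the span of pelo on the opposite strand, with no shared exonic bases, rose while pelo fell (1.80, SE 0.27, adjusted p = 0.00476 by edgeR). CG44532, which ends next to the start of mei-P26 on the same strand, was at 7.25 ± 2.09 CPM in knockout ovaries and 0.201 ± 0.193 CPM in control ovaries (5.09, SE 0.83, adjusted p = 0.00621 by edgeR). Pym, TBPH, CG31710 and CG44532 were not called when either knockout library was left out (adjusted p = 0.0502 to 0.118 by edgeR). With scaling over germline markers TBPH (0.60, adjusted p = 0.244 by edgeR) and CG31710 (1.25, adjusted p = 0.0738 by edgeR) were not called either.

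Overlapping exons on opposite strands were found for 6 of these neighbours. The strand setting of the counting is not given in the sources used here, so such reads may be uncertain. The exons of cav and twin share 454 bases at their starts, and cav fell with twin, to 17.6 ± 2.90 CPM in the knockout against 51.2 ± 8.21 CPM in control ovaries (-1.50, SE 0.19, adjusted p = 0.0030 by edgeR). The exons of nos share 269 bases with CG11779 and 104 with Nsun5, neither of which was called (0.11, SE 0.16, and 0.53, SE 0.27), though Nsun5 was called higher against control 1 alone (0.95), with a term for deep against shallow libraries (1.07) and with the replicate number as a block (0.72). Those of bam share 224 bases with CG11854, which had 0.105 CPM in knockout 2 and 0 in the other libraries.

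The genes with a pattern over the 5 libraries most like that of bam, by Euclidean distance between centred log2 CPM profiles, were CG10959, Tusp and EloA, at distances of 0.175, 0.205 and 0.227. CG10959 had 4.61 and 5.02 CPM in the knockout libraries, against 20.0, 27.6 and 28.6 CPM in controls 1, 2 and 3. Tusp had 3.43 and 3.37 CPM in the knockout libraries, against 15.4, 18.3 and 16.0 CPM in the controls. EloA, a subunit of the elongation factor Elongin, had 31.4 and 32.3 CPM in the knockout libraries, against 137, 162 and 142 CPM in the controls. Among the 8 regulators the nearest to bam by this distance was brat at 0.706 and the farthest bgcn at 9.86. The distance also depends on the size of the change. By Pearson correlation of the same profiles nos was the highest at 0.992, with brat at 0.980.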

How the data were processed

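The values the authors deposited are estimated counts by gene, unscaled and not whole numbers, in 1 table with a column for each library. The submitters' processing notes name Salmon 1.2.1, STAR 2.7.5b, Trim Galore 0.6.6, FastQC 0.11.8 and the dm6 build. Their order and settings, the annotation and the strand setting are not given in the sources used here. Libraries were made with a directional kit, per the labels' protocols. Column names were matched to the labels, which also gave the groups. The design text mentions duplicates, but there are 2 knockout and 3 control samples, and all were used.

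CPM were computed from column totals. The 21 genes whose symbol holds rRNA took 11.7% to 17.3% of a library. Estimated counts were rounded, filtered with filterByExpr and scaled by TMM (0.941 to 1.03). The test was the quasi-likelihood F test of edgeR 4.0.16 (R 4.3.3) with robust glmQLFit, genotype as the only term and Benjamini-Hochberg adjustment over 9241 genes. SE is the size of the fold change over the square root of F. Alternatives included DESeq2 1.42.0. The fit was tested on simulated data. Positions and transcript lengths are from Ensembl 115 (BDGP6.54, dm6 coordinates), which held 14048 of 14094 identifiers (99.7%). The level at 3 counts ranged over the libraries up to 0.355 CPM, with 0.0628 CPM as the lowest. No libraries were duplicates: the lowest chi-square per degree of freedom was 12.5, between controls 2 and 3.

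The 8 members, the gene lists and the tests were chosen with earlier results of these data known. The regulators were always named. From a pathway list, called genes were named in order of p (4 at most) and then the 2 most abundant of the uncalled, besides the 3 genes nearest bam. Of lists of other cell types, sums and counts are given. Znf598 is listed as a partner of pelo but is not among the gene names used here. With 2 against 3 libraries, the exact permutation test cannot give a p under 0.1.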

Additional observations from a re-analysis of the deposited data

How the results depend on the processing

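Under 8 alternatives that keep every library in a fit or, for deep libraries, 3 of them, the 8 regulators kept their call and direction except where given here. The pum change turned to -0.34 with scaling over germline markers and -0.088 with deep libraries only (both knockout libraries against control 1, chosen after seeing the data, where the lone control is assumed to vary like the knockout). The germline scaling moved the median of all genes by -0.57 and the share of higher among called genes to 39.2%, against 54.9% as reported. With 1 library left out, changes ran from -2.37 to -2.20 for bam, 5.12 to 8.29 for bgcn, -1.49 to -1.30 for mei-P26, -3.66 to -3.29 for nos, -0.0021 to 0.36 for pum, -1.90 to -1.68 for brat, -0.99 to -0.81 for twin and -0.70 to -0.60 for pelo. Of the 8, 0 to 1 were then called higher and 3 to 6 lower. Without knockout 1 it was 3 lower and 878 genes in all, without knockout 2 it was 4 lower and 1031, without control 1 it was 6 lower and 6083, and 5053 were called with depth class (deep against shallow) as a term and 5949 with deep libraries only. These fits with 1 library left out have fewer libraries, and otherwise the cause was not tested.

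No label ties same-numbered libraries, whose deviations correlated at 0.0577 and 0.0475 over genes. With the replicate number as a block, 3261 genes were called, pelo was not (-0.61, adjusted p = 0.092 by edgeR), later cyst regulators had 0 lower, maintenance factors 1 higher and BMP genes 0 lower.

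The list counts moved as follows. With scaling over germline markers, CCR4-NOT subunits had 0 higher, later cyst regulators 1, maintenance factors 0 and ribosome rescue partners 0. CCR4-NOT subunits also had 0 higher with relative log expression factors, with no filter and with deep libraries only. With depth class as a term, 1 Bam partner was higher, and 1 CCR4-NOT subunit, 1 maintenance factor and 2 BMP genes were lower. With deep libraries only, 1 Bam partner was higher, and 1 CCR4-NOT subunit, 1 maintenance factor and 4 BMP genes were lower. DESeq2 called 1 maintenance factor lower. With 1 library left out, Bam partners had 1 to 2 lower, CCR4-NOT subunits 0 to 5 higher, later cyst regulators 2 to 3 higher and 0 to 1 lower, maintenance factors 0 to 4 higher and 0 to 1 lower, BMP genes 1 to 6 higher and 0 to 1 lower, and ribosome rescue partners 0 to 2 higher. The 5 ratios kept their direction with 1 CPM added and with 1 library left out. In controls 2 and 3 a level of 3 counts is 0.355 and 0.289 CPM, so bgcn below that could not be told from 0. Control 1 held 0.681 CPM of bgcn, above both levels, and the cause of that gap among the controls was not tested.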
